A study of Mus musculus with 4 samples.

Results

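Transcripts of the tumour necrosis factor (TNF) superfamily and of the proteins that carry its signal were measured in mouse embryonic fibroblasts (MEFs) transfected with Dlx3, a homeobox transcription factor. The members were the probes whose description in the array files begins with "Tumor necrosis factor", "Ectodysplasin" or "Tnf receptor-associated factor". This wording took in 44 of 16463 transcript probes, and 43 remained after Tnfaip3, a target gene of the pathway, was left out. They comprise 14 ligands, 21 receptors, 5 TRAF adaptors and 3 proteins named for their induction by TNF. Each is a single spot on each array.

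Of the 4 two-colour arrays, 2 compared MEFs stably transfected with a Dlx3 plasmid (Cy5) with MEFs that received the empty plasmid (Cy3). The other 2 compared MEFs labelled as expressing Dlx3, 24 h after transient transfection (Cy5), with control MEFs (Cy3), and the labels do not say whether those controls received a plasmid. In each group 1 array is titled a biological repeat of the other, without a word on separate cultures, so p-values measure only the spread between these samples. Strain, embryonic age, the promoter that drives Dlx3 and whether the stable cells are 1 clone or a pool are not given in the sources used here. Since every array carried the Dlx3 cells in Cy5, a dye effect of a probe stays in each ratio. Values below are log2 ratios of Dlx3 over control unless stated otherwise.

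TNF ligands act as trimers at the cell surface or after shedding, and their receptors fall into those with a death domain, those that bind TRAF adaptors and decoys that carry no signal. From the adaptors the signal runs to the kinases that free NF-kB, to JNK and p38, or to the caspases. Ectodysplasin-A (Eda) and its receptor Edar form the branch that patterns hair, teeth and glands, tissues in whose development Dlx3 is also known to act.

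Many of these probes were dim. Of the 43 members, 33 were above local background in either channel on at least 2 arrays and were tested, and the other 10 (Cd27, Fas, Fasl, Tnfrsf9, Tnfrsf19, Tnfsf4, Tnfsf10, Tnfsf11, Traf1 and Traf6) were not. Randomized oligonucleotides, spots without a mouse target, were above local background in either channel at 28.6 to 54.2% of spots per array, so a stricter mark was their 95th percentile. Among the tested members 9 passed it on at least 2 arrays, against 30.7% of all tested probes. These were the receptors Edar, Tnfrsf1a, Tnfrsf1b, Tnfrsf10b, Tnfrsf21, Tnfrsf23 and Cd40 and the induced proteins Tnfaip1 and Tnfaip2. Edar passed it only in the Dlx3 channel of the stable arrays, where it was high. None of the 10 tested ligands and none of the 3 tested adaptors passed it. Signal of another transcript on such dim probes was not tested, since probe sequences were not analysed here.

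**Figure D1:**
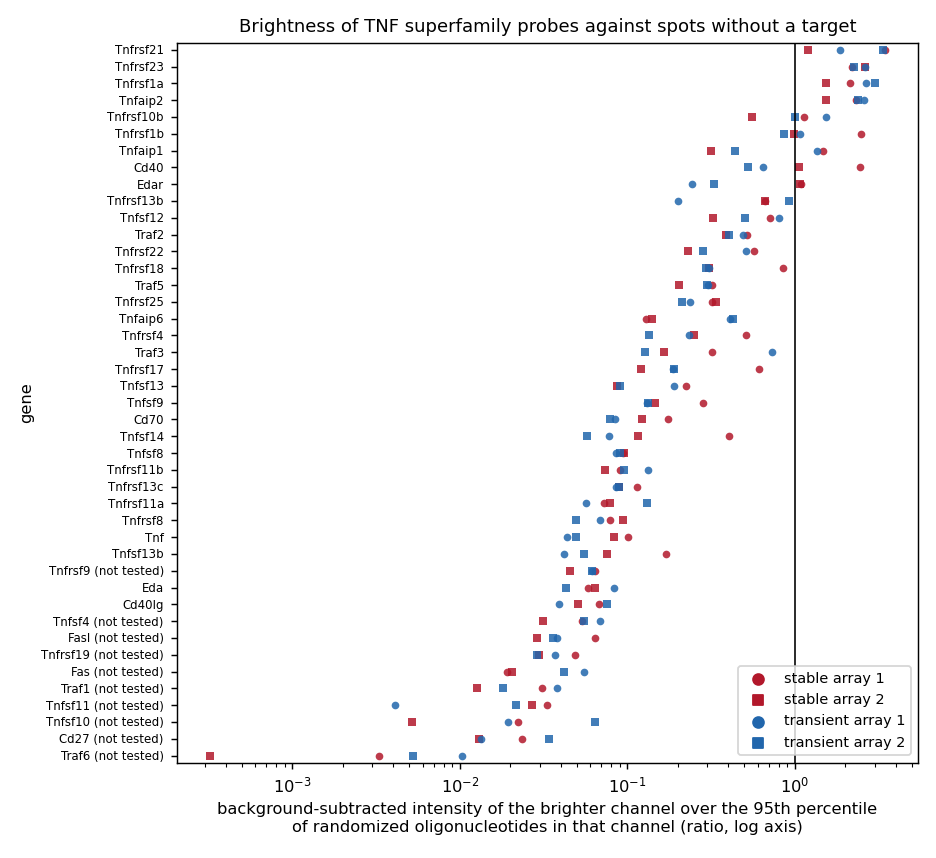
Background-subtracted intensity of the brighter channel of each of the 43 member probes, over the 95th percentile of randomized oligonucleotides in the same channel and array (log axis), with 1 point per array and a line at a ratio of 1. Tnfrsf21, Tnfrsf23, Tnfrsf1a and Tnfaip2 lie to the right of the line on all 4 arrays, Edar only on the 2 stable arrays, and Eda and Tnf lie to the left of it on every array.

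The arrays and cells were checked through probes outside the family. The probe for Dlx3 read 0.06 and 0.23 in stable and 0.14 and 0.56 in transient transfectants, and it was called in neither group (limma adjusted p = 0.396 and 0.179). Whether this probe detects the transcript of the Dlx3 plasmid is not given in the sources used here. Of 8 fibroblast marker probes 7 were tested and 4, those of Vim, Col1a2, Col6a1 and Pdgfrb, passed the mark set by the randomized oligonucleotides, while Lum was above background on 0 arrays. Their summed intensity was 135421 to 165123 for the Dlx3 cells and 134106 to 157715 for the controls, most of it from Vim, saturated in part, and Col1a2. In stable transfectants Dcn (1.00), Pdgfra (0.98) and Col6a1 (0.78) of this list rose (adjusted p = 0.00427, 0.00427 and 0.0138), and their part in the changes of the members was not tested. None of the 3 macrophage and 9 lymphocyte marker probes passed that mark, while Krt1 and Krt15 of the keratinocyte list and Kdr of the endothelial list did. The summed intensity of the lymphocyte list was 1837 to 3351 for the Dlx3 cells and 1692 to 4162 for the controls, with 5 of its 9 probes tested, and 2 of the 3 macrophage probes were tested.

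In stable transfectants 12 of the 33 tested members passed the test, 7 higher and 5 lower, where 22.7% of all tested probes passed (11.6% higher and 11.1% lower). The members that rose were Edar, the TNF receptor Tnfrsf1a, osteoprotegerin (Tnfrsf11b), Cd40lg, Tnfrsf4, Tnfrsf8 and Tnfaip6. Those that fell were the decoy receptor Tnfrsf22, the ligands Eda and Tnfsf14, the adaptor Traf2 and Tnfaip2. By role, 6 of 17 receptors, 3 of 10 ligands, 1 of 3 adaptors and 2 of 3 induced proteins passed. The median size of the change was 0.28 over the members and 0.18 over all tested probes. The count of 12 was 15 without the first stable array, 3 without the second and 3 without either transient array, which enter this comparison through the shared estimate of spread. The share of all tested probes called in these fits was 29.8, 14.1 and 8.4%.

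**Figure D2:**
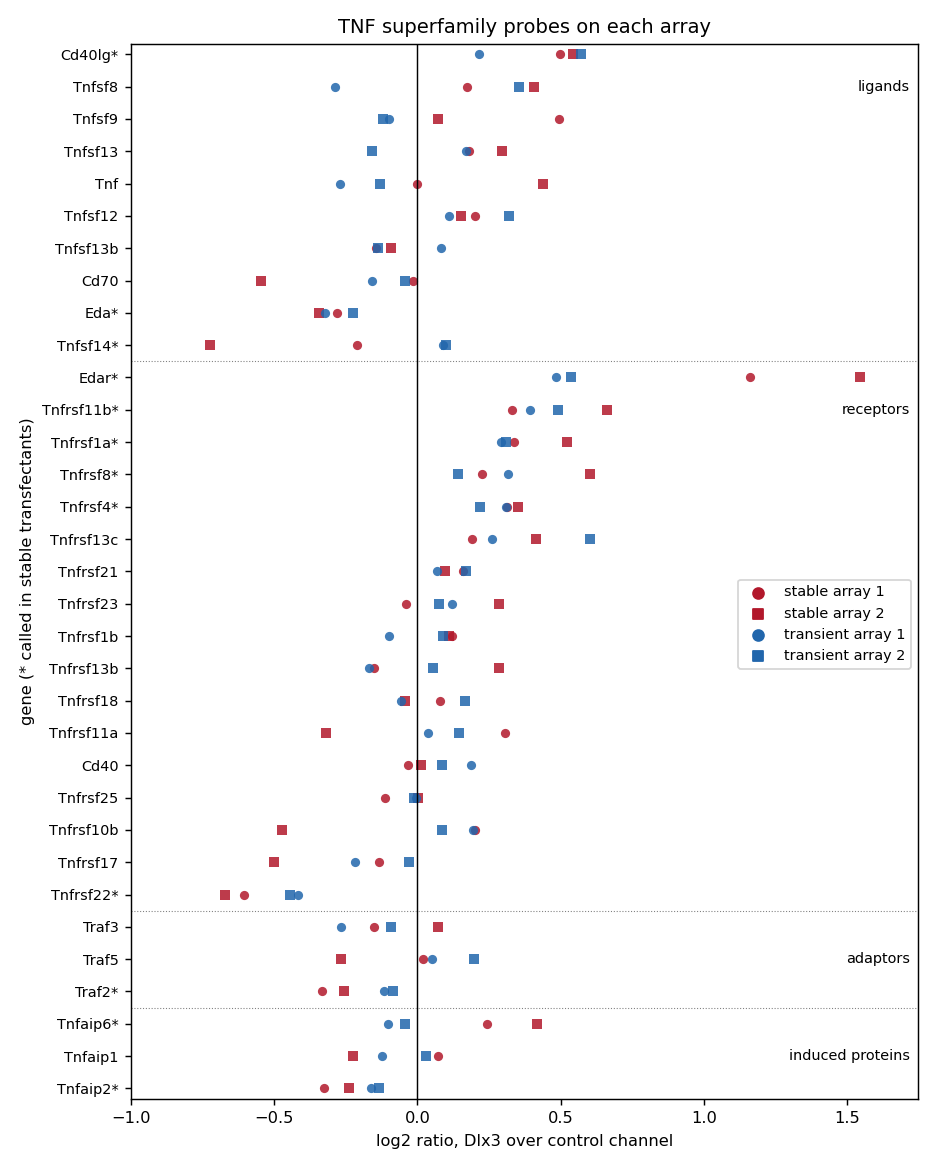
Log2 ratio of Dlx3 over control (horizontal axis) on each array for the 33 tested members, grouped by role, with stable arrays in red and transient arrays in blue and with an asterisk for members called in stable transfectants. Edar reads 1.16 and 1.55 in red and 0.49 and 0.54 in blue, to the right of all other members on the stable arrays, and Tnfrsf22 is below -0.40 on all 4.

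Edar, the receptor of ectodysplasin-A1, rose more than any other tested member in stable transfectants. The stable ratios were 1.16 and 1.55, the transient ratios 0.49 and 0.54. All 4 arrays were positive, and both stable values lay above both transient ones. The stable mean was 1.36 ± 0.27 (SD, n = 2, 2.56-fold, 95% confidence interval 1.10 to 1.61, limma adjusted p = 0.00427). Edar was past 1.5-fold on both stable arrays, which held for 2.38% of tested probes. Whether more cells carried the transcript or each cell carried more of it cannot be told apart in RNA from whole cultures.

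The transient mean of Edar was 0.51 ± 0.04 (SD, n = 2, 1.42-fold, adjusted p = 0.0932). The difference of 0.84 between stable and transient, with an interval of 0.48 to 1.21, did not pass either (adjusted p = 0.109). It passed without the first stable array, at 1.04 (adjusted p = 0.0212), and the transient value passed without either stable array (adjusted p = 0.025). Over all 4 arrays Edar was 0.93 higher (adjusted p = 0.00513). The spot had an intensity of 365 to 3401 for the Dlx3 cells and 277 to 1275 for the controls and was above background on all 4 arrays. The Dlx3 signal was over the 95th percentile of randomized oligonucleotides on both stable arrays, and the control signal on 0 arrays. The stable call of Edar held under all 15 alternatives, with values of 1.10 to 1.55. Among them, the fit on probes brighter than the randomized oligonucleotides holds Edar only through its Dlx3 signal on the stable arrays. The fits without a transient array and the fit on the stable group alone repeat the same check.

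Edar is best known from epithelium, so epidermal markers are given beside it. Of 6 tested keratinocyte and epidermal probes, Krt5 rose in stable transfectants (0.46, adjusted p = 0.0296), and Krt1 (0.18), Krt15 (-0.21), Epcam (0.13), Cdh1 (-0.23) and Trp63 (-0.17) did not pass. The summed intensity of this list was 5149 to 17680 for the Dlx3 cells and 5008 to 19016 for the controls. Their part in the change of Edar was not tested.

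Eda, the ligand of Edar, was lower than control on every array after global loess, and its sign turned with print-tip loess. The stable ratios were -0.28 and -0.34, the transient ratios -0.32 and -0.23. The stable and transient values overlapped. Eda fell by 0.31 ± 0.04 in stable transfectants (SD, n = 2, 1.24-fold, adjusted p = 0.0357) and by 0.29 over all 4 arrays (adjusted p = 0.0173). In transient transfectants the Dlx3 channel was not well above background on either array, and Eda did not pass (-0.27, adjusted p = 0.138). A nominal ratio of 1.19-fold lower takes, for each array, its own signal or the lowest one well above background, whichever is higher. Under the alternatives the transient log2 ratio ran from -0.51 to -0.14. The Eda spot was dim, at 157 to 301 for the Dlx3 cells and 201 to 453 for the controls. In stable transfectants each channel was well above background on only 1 array. The stable call ended with median centring, with scaling between arrays and in the fit on the group alone. It also ended when the second stable array was dropped (-0.28) and without either transient array. Print-tip loess brought the stable value to 0.01 (adjusted p = 0.962). The call over all arrays ended without either transient array (adjusted p = 0.14 and 0.105). Tnfrsf19, a receptor related in sequence to Edar, and Traf6, the adaptor on which Edar signalling depends, were not tested.

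The promoters of Edar and Eda, which changed in opposite directions, and of Tnfrsf1a, which rose with Edar, are shown for their letters. Windows reach from 250 bases before to 50 bases after the annotated start and come from RefSeq on build GRCm38.p6, with 34 of 43 members matched by symbol and 38 windows in all. A loose form of the NF-kB site, GGG and CC with any 5 bases between them, was searched on both strands. Matches on both strands over the same bases were counted as 1 place, and other overlapping matches separately. This loose form was in 50.8% of all 32851 windows and in 25 of the 38 member windows (65.8%). The homeodomain core TAATT, also on both strands, was in 27.0% of all windows and in 6 of the 38 (15.8%), and none of the 3 windows below holds it. Each is written 5' to 3' on the strand of its gene, with matches to the loose NF-kB form on either strand in capitals. A match is a description of letters and not a bound site.
Edar: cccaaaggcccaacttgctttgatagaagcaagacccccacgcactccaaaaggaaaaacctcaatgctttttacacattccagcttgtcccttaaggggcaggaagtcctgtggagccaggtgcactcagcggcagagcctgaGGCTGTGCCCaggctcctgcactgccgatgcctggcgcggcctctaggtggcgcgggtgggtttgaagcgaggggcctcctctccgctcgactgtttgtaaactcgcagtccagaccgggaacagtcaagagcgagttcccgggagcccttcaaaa
Eda: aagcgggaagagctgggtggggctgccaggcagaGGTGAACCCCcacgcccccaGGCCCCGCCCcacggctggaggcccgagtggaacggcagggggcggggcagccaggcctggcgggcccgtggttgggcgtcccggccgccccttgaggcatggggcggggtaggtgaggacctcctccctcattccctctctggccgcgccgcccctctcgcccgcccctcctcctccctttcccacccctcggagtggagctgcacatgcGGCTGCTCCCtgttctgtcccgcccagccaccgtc
Tnfrsf1a: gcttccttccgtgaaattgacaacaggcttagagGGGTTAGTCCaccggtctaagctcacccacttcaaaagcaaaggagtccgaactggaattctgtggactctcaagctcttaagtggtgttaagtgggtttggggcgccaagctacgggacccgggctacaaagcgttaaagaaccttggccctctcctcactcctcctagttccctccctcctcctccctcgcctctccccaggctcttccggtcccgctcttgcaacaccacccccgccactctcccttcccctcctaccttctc
The Edar window is chr10:58675647-58675946 on the minus strand and has 1 match, which begins 106 bases before the start and reads in the other direction. The Eda window is chrX:99975356-99975655 on the plus strand and has 3, all in the other direction, of which 2 lie 216 and 196 bases before the start and 1 begins at base 16 after it. The Tnfrsf1a window is chr6:125349473-125349772 on the plus strand and has 1 match, 216 bases before the start.

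Of the TNF receptors, Tnfrsf1a, the broadly expressed receptor with a death domain, rose in stable transfectants. The stable ratios were 0.34 and 0.52, the transient ratios 0.29 and 0.31. Every array was positive, and the stable values lay just above the transient ones. The stable mean was 0.43 ± 0.13 (SD, n = 2, 1.35-fold, adjusted p = 0.0197), the transient mean was 0.30 ± 0.01 (adjusted p = 0.133), and over all 4 arrays Tnfrsf1a was 0.37 higher (adjusted p = 0.0123). The spot stood at 2404 to 5218 over both channels. The transient value passed without either stable array (adjusted p = 0.0454). The stable call ended when the second stable array was dropped (0.34, adjusted p = 0.0562) and without either transient array (adjusted p = 0.0555), and the call over all arrays ended without either transient array (adjusted p = 0.0879 and 0.0926).

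Tnf itself, the ligand of both TNF receptors, was dim, at 149 to 364 over both channels. It read -0.00 and 0.44 in stable and -0.27 and -0.13 in transient transfectants. The stable arrays lay above the transient ones but differed widely from each other. Neither the stable mean of 0.22 ± 0.31 (SD, n = 2, adjusted p = 0.217) nor the transient mean of -0.20 ± 0.10 (adjusted p = 0.392) passed, and the stable value rested on the second stable array, without which it was -0.003, and it passed when the first was dropped (0.44, adjusted p = 0.0264). The second TNF receptor, Tnfrsf1b, which has no death domain, did not pass in stable transfectants (0.12, adjusted p = 0.334, interval -0.08 to 0.31).

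Among receptors of TRAIL, the death ligand Tnfsf10, the mouse decoy receptor Tnfrsf22 fell. The stable ratios were -0.61 and -0.67, the transient ratios -0.42 and -0.45. All 4 arrays were negative, and the stable values lay below the transient ones. The stable mean was -0.64 ± 0.05 (SD, n = 2, 1.56-fold lower, adjusted p = 0.00864), and both stable arrays were past 1.5-fold. The transient mean was -0.43 ± 0.02 (1.35-fold lower, adjusted p = 0.072), and it passed without either stable array (adjusted p = 0.0285). Over all 4 arrays Tnfrsf22 fell by 0.54 (adjusted p = 0.00532). The stable call held under all 14 alternatives that tested it, with values of -0.69 to -0.52.

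The other decoy receptor of this kind, Tnfrsf23, which neighbours Tnfrsf22 on chromosome 7 in RefSeq assembly GRCm38.p6 with no protein-coding gene between them, did not pass. It read -0.04 and 0.28 in stable and 0.12 and 0.07 in transient transfectants (stable adjusted p = 0.389). The signalling receptor Tnfrsf10b split between the stable arrays, at 0.20 and -0.47 (adjusted p = 0.549). The Tnfrsf23 spot stood at 2523 to 8168 over both channels and the Tnfrsf22 spot at 479 to 1314. Whether transcripts of one hybridised to the probe of the other was not tested, nor was the difference between the 2 probes. TRAIL itself was not tested.

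Osteoprotegerin (Tnfrsf11b), the secreted decoy that keeps RANKL from its receptor RANK, rose. It read 0.33 and 0.66 in stable and 0.39 and 0.49 in transient transfectants. All 4 values were positive, and the groups overlapped. The stable mean was 0.50 ± 0.24 (SD, n = 2, 1.41-fold, adjusted p = 0.0223), the transient mean 0.44 ± 0.07 (adjusted p = 0.1) and the mean over all 4 arrays 0.47 (adjusted p = 0.0109). Each channel was above background on 1 array of each group, at 182 to 320. With the second stable array dropped it was 0.33 (adjusted p = 0.066), and without either transient array its adjusted p was 0.0531. The call over all arrays ended without either transient array (adjusted p = 0.0667 and 0.0793), and the transient value passed without either stable array (adjusted p = 0.029). RANK (Tnfrsf11a) was called in no comparison, and RANKL (Tnfsf11) was not tested.

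Of the ligand and receptor pairs grouped here as known from costimulation of lymphocytes, 8 members were tested. In stable transfectants 3 of them rose and 0 fell, where 11.6% of all probes rose and 11.1% fell. The grouping was made by hand and leaves out the ligand Tnfsf14, given below, which fell (-0.47, adjusted p = 0.0451). Cd40lg, the ligand of Cd40, read 0.50 and 0.54 in stable and 0.22 and 0.57 in transient transfectants. Every value was positive, and the groups overlapped. The stable mean was 0.52 ± 0.03 (SD, n = 2, 1.44-fold, adjusted p = 0.021), and 0.50 (adjusted p = 0.0726) with the second stable array dropped. Over all 4 arrays the mean of 0.46 passed (adjusted p = 0.0123), and without the second transient array it was 0.37 (adjusted p = 0.0805). The control channel was above background on neither transient array, so the transient ratio of 0.39 (adjusted p = 0.123) was taken to an undetected signal. Cd40, its receptor, was called in no comparison.

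Tnfrsf4, the receptor OX40, read 0.31 and 0.35 in stable and 0.31 and 0.22 in transient transfectants. Values were alike on all 4 arrays, with a stable mean of 0.33 ± 0.03 (SD, n = 2, adjusted p = 0.0295) and a mean over all arrays of 0.30 (adjusted p = 0.0163). Tnfrsf8, the receptor CD30, read 0.23 and 0.60 in stable and 0.31 and 0.14 in transient transfectants. Its values overlapped between the groups, with a stable mean of 0.41 ± 0.26 (SD, n = 2, adjusted p = 0.0439) and a mean over all arrays of 0.32 (adjusted p = 0.0349). Its Dlx3 channel was above background on 1 stable and 0 transient arrays. With the second stable array dropped the values were 0.31 for Tnfrsf4 (adjusted p = 0.0731) and 0.23 for Tnfrsf8 (adjusted p = 0.175), and without either transient array their adjusted p was 0.0836 and 0.0816. Neither mean over all arrays passed without either transient array (adjusted p = 0.103 to 0.19), nor did that of Tnfrsf8 when the second stable array was dropped (adjusted p = 0.051). Of the 5 tested lymphocyte markers 1 was called in stable transfectants, Cd79b, and it fell (-0.46, adjusted p = 0.0188), and their part in these changes was not tested.

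The ligand LIGHT (Tnfsf14), which binds HVEM and the lymphotoxin beta receptor, fell in stable transfectants. Its stable ratios were -0.21 and -0.73, and its transient ratios 0.09 and 0.10. The stable arrays were negative and the transient arrays positive. Its stable mean of -0.47 ± 0.36 (SD, n = 2, 1.38-fold lower, adjusted p = 0.0451) passed, and the difference from the transient group (-0.56, adjusted p = 0.192) did not. The stable call held under 5 of 14 alternatives. It ended with plain background subtraction, scaling between arrays, no filter on dim probes, spots marked as not found left out, and the deposited values. The call also ended in the fit on the group alone, without either transient array and when the second stable array was dropped (-0.21). The genes next to Tnfsf14 on chromosome 17, Cd70 (-0.28, adjusted p = 0.161) and then Tnfsf9 (0.28, adjusted p = 0.113), did not pass.

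Of the ligands and receptors that sustain B cells, 5 members were tested and 0 passed in either group alone. Tnfrsf13c, the receptor of BAFF, read 0.19 and 0.41 in stable and 0.26 and 0.60 in transient transfectants. Each array was positive, and the groups overlapped. Neither group passed alone (adjusted p = 0.0921 and 0.119), and over all 4 arrays Tnfrsf13c rose by 0.37 (adjusted p = 0.0239). That call ended when the second stable array was dropped (0.31, adjusted p = 0.0506) and without either transient array (0.45 and 0.28, adjusted p = 0.0665 and 0.146). BAFF itself (Tnfsf13b) stood at -0.12 in stable transfectants (adjusted p = 0.342), and its relative APRIL (Tnfsf13) did not pass either.

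Of the receptors, 10 were called in no comparison, with means of -0.32 to 0.13 in stable and -0.12 to 0.14 in transient transfectants. Beside Tnfrsf1b, Tnfrsf10b, Tnfrsf23, Tnfrsf11a and Cd40 they were the death domain receptors Tnfrsf21 (DR6) and Tnfrsf25 (DR3), the plasma cell receptor Tnfrsf17 (BCMA), Tnfrsf13b (TACI) and the costimulatory Tnfrsf18 (GITR). Of the ligands other than Tnf, 6 were called in no comparison, with means of -0.28 to 0.29 in stable and -0.11 to 0.21 in transient transfectants. These were Tnfsf8, Tnfsf9, Cd70, Tnfsf12 (TWEAK), Tnfsf13 and Tnfsf13b.

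Among the adaptors, Traf2, which links TNF receptors to NF-kB and JNK, fell in stable transfectants. It read -0.33 and -0.26 in stable and -0.12 and -0.08 in transient transfectants. All 4 arrays were negative, with the stable values below the transient ones. The stable mean was -0.29 ± 0.05 (SD, n = 2, 1.23-fold lower, adjusted p = 0.0386), the mean over all arrays -0.20 (adjusted p = 0.0441) and the transient mean -0.10 (adjusted p = 0.495). The stable call ended without any 1 of the arrays (adjusted p = 0.0582 to 0.108), and the call over all arrays ended without either transient array (adjusted p = 0.253 and 0.218). Traf3 and Traf5 did not pass in stable transfectants (-0.04 and -0.12, adjusted p = 0.764 and 0.376).

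Of the 3 proteins named for induction by TNF, 1 rose and 1 fell. Tnfaip6 (TSG-6), which binds hyaluronan, read 0.24 and 0.42 in stable and -0.10 and -0.04 in transient transfectants. The stable arrays were positive and the transient arrays negative, with a stable mean of 0.33 ± 0.12 (SD, n = 2, 1.26-fold, adjusted p = 0.0365). The difference between the groups, 0.40, did not pass (adjusted p = 0.175). Tnfaip2 read -0.33 and -0.24 in stable and -0.16 and -0.13 in transient transfectants. All of its values were negative, with a stable mean of -0.28 ± 0.06 (SD, n = 2, 1.22-fold lower, adjusted p = 0.0437) and a mean over all arrays of -0.22 (adjusted p = 0.0362). With the second stable array dropped the adjusted p was 0.114 for Tnfaip6 and 0.0605 for Tnfaip2, and without either transient array it was 0.0934 and 0.119. Tnfaip2 also lost its stable call when the first stable array was dropped (adjusted p = 0.0843) and its call over all arrays without either transient array (adjusted p = 0.219 and 0.194). Print-tip loess brought Tnfaip2 to -0.07 in stable transfectants (adjusted p = 0.497) and to -0.006 over all arrays (adjusted p = 0.94). Tnfaip1 read 0.07 and -0.23 on the stable arrays (adjusted p = 0.589).

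At 24 h of transient transfection limma called 0 of the 33 members, where it called 0.144% of all tested probes (0.0958% higher and 0.0479% lower). At an unadjusted p under 0.05 there were 9 members, Tnfrsf22, Edar, Tnfrsf11b, Tnfrsf13c, Cd40lg, Tnfrsf1a, Eda, Tnfrsf4 and Tnfsf12, against 20.2% of all tested probes. No tested member was past 1.5-fold on both transient arrays, against 0.698% of tested probes. In stable minus transient limma also called 0 of 33, where 0.24% of all probes were called, and 5 had an unadjusted p under 0.05 (Edar, Tnfaip6, Tnfsf14, Tnf and Tnfsf9), against 19.5% of all probes. Over all 4 arrays 11 of 33 were called, 7 higher and 4 lower, against 22.3% of all probes (11.1% higher and 11.3% lower). Without either stable array the transient count was 4, where 8.81% of all probes were called. Without the first stable array the count in stable minus transient was 4, where 9.21% were called. Over all arrays the count was 3 and 2 without the first and second transient array, where 1.51 and 1.71% were called.

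**Figure D3:**
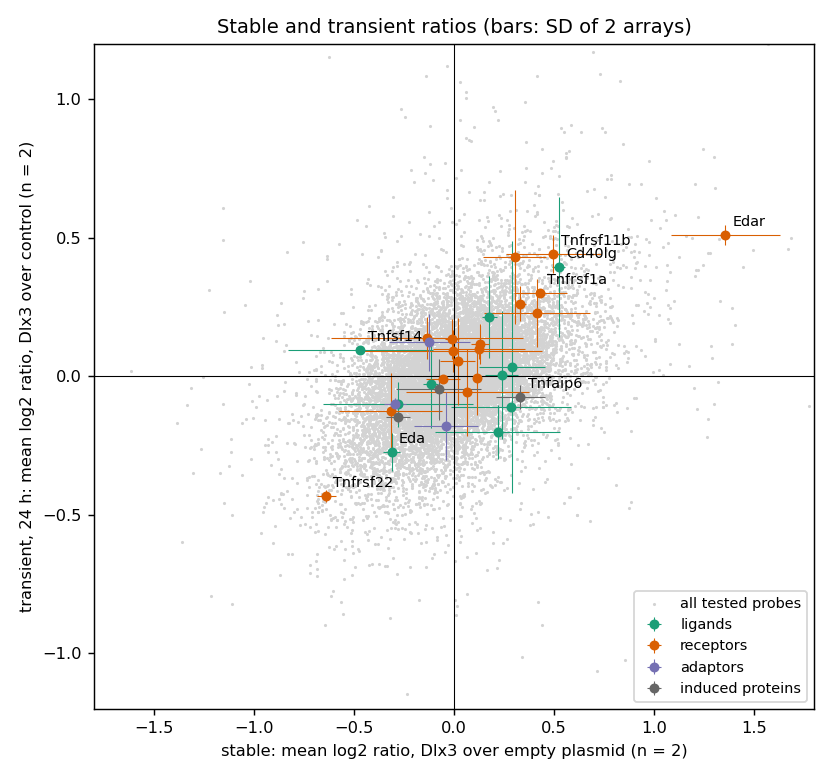
Mean log2 ratio in stable (horizontal axis) against transient transfectants (vertical axis) for the 33 tested members, coloured by role, with bars of 1 SD over the 2 arrays of a group, on top of all tested probes in grey (25 grey points lie outside the axes). Edar stands at 1.36 and 0.51 and Tnfrsf22 at -0.64 and -0.43, and Tnfsf14 and Tnfaip6 lie on opposite sides of 0 in the 2 groups.

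Other genes of the pathway were taken from lists, which were chosen with earlier results of these data known. Of each list the called genes with the largest changes are named. Among the genes so named, Nsmaf, Bid, Nfkbiz, Fos, Wnt10a and Lef1 did not pass the mark set by the randomized oligonucleotides. Of 31 probes for adaptors and death signalling, 4 rose and 5 fell in stable transfectants, against 22.7% of all probes called, and limma called 0 in transient transfectants, with 8 at an unadjusted p under 0.05, against 20.2% of all probes. The members of that list with the largest changes were Nsmaf, which links Tnfrsf1a to sphingomyelinase (-0.54, adjusted p = 0.0139), the necroptosis kinase Ripk3 (-0.53, adjusted p = 0.0113), the death agonist Bid (0.48, adjusted p = 0.0348) and the Fas-binding protein Faf1 (-0.46, adjusted p = 0.0218). Print-tip loess brought Nsmaf to -0.16 (adjusted p = 0.174). A second Ripk3 probe, named through a clone, did not pass (-0.03, adjusted p = 0.78). Without the second stable array or either transient array the count of this list was 3 in place of 9, without the first stable array it was 15, and Bid (adjusted p = 0.149 and 0.0585) and Faf1 (adjusted p = 0.0644 and 0.0557) were no longer called with the second stable array dropped or without either transient array. Of 4 probes for ligand shedding, limma called 0 in either group, with 0 at an unadjusted p under 0.05.

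Of 12 probes for NF-kB subunits, inhibitors and kinases, 3 rose and 0 fell in stable transfectants, where 22.7% of all probes were called. Relb, a subunit of the alternative NF-kB pathway, read 0.60 and 0.72 in stable and 0.00 and 0.09 in transient transfectants (stable 0.66, adjusted p = 0.00901). Nfkbia, the inhibitor that NF-kB itself induces, read 0.32 and 0.38 on the stable and -0.25 and -0.26 on the transient arrays (stable 0.35, adjusted p = 0.0249), a call lost with the second stable array dropped (adjusted p = 0.0636) and without either transient array (adjusted p = 0.0762). Nfkbiz, a nuclear inhibitor protein that modifies the choice of NF-kB targets, stood at 0.53 and 0.91 in stable and -1.14 and -0.98 in transient transfectants. The values of Nfkbiz lay on opposite sides of 0 in the groups. It rose in stable transfectants (0.72, adjusted p = 0.0136), fell by 1.06 at 24 h (adjusted p = 0.0459) and differed between the groups by 1.78 (adjusted p = 0.0265). Plain background subtraction ended the call of the fall and that of the difference. Print-tip loess, and leaving out the filter on dim probes, ended the call of the fall. Both the fall and the difference were lost without either transient array (adjusted p = 0.0855 to 0.366).

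Of 20 probes for TNF and NF-kB targets, 5 rose and 1 fell in stable transfectants, against 22.7% of all probes called. In transient transfectants limma called 0 of them, with 9 at an unadjusted p under 0.05, against 20.2% of all probes. The chemokines Cxcl5, Cxcl1, Ccl2 and Ccl5 had the largest changes. Cxcl5 stood at 1.06 and 2.64 in stable and -1.61 and -1.43 in transient transfectants. Cxcl1 stood at 0.55 and 1.54 and at -1.31 and -1.27, and Ccl2 at 0.31 and 1.40 and at -1.11 and -0.94. These 3 were positive on the stable and negative on the transient arrays, while Ccl5, at 0.81 and 0.61 on the stable arrays, was at -0.15 and 0.23 on the transient arrays. Cxcl5 (1.85, adjusted p = 0.0175), Cxcl1 (1.05, adjusted p = 0.0223) and Ccl5 (0.71, adjusted p = 0.014) kept their stable call under all 15 alternatives. That of Ccl2 (0.85, adjusted p = 0.047) held under 7 of 15. It ended with plain background subtraction, no filter on dim probes, robust eBayes and the deposited values. The call of Ccl2 also ended in the fit on the group alone, without either transient array and when the second stable array was dropped (0.31). The differences between the groups did not pass for Cxcl5 (3.37, adjusted p = 0.0681), Cxcl1 (2.34, adjusted p = 0.0594) or Ccl2 (1.88, adjusted p = 0.107). The count of 6 targets called in stable transfectants was higher without either stable array and lower without either transient array. The share of all probes called moved the same way, except without the second stable array. At 24 h the count of targets was higher without either stable array, as was the share of all probes.

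In the JNK and p38 branch, Fos, a subunit of AP-1, rose (0.97, adjusted p = 0.0102) and the kinase Mapk9 (JNK2) fell (-0.40, adjusted p = 0.0205) among 12 tested probes in stable transfectants, against 22.7% of all probes called. Mapk9 was not called without either transient array (adjusted p = 0.0588), and the count of this list was 4 without the first stable array. Print-tip loess brought Mapk9 to -0.02 (adjusted p = 0.836). In the ectodysplasin branch, a list that holds Edar and Eda themselves, 8 probes were tested, and 2 rose and 3 fell in stable transfectants, against 22.7% of all probes called. That count of 5 was 3 without the second stable array and 2 without either transient array. Wnt10b, a Wnt ligand of hair and tooth placodes, read -1.13 and -1.59 on the stable and -0.54 and -0.66 on the transient arrays (stable -1.36, adjusted p = 0.00529). Wnt10a read 1.17 and 0.28 in stable and 0.06 and 0.08 in transient transfectants. Its stable call (0.72, adjusted p = 0.0447) held under 6 of 14 alternatives. It ended with plain background subtraction, print-tip loess, scaling between arrays and no filter on dim probes. The call also ended in the fit on the group alone, without either transient array and when the first stable array was dropped (0.28). Lef1, a transcription factor of the Wnt pathway, read -0.30 and -0.35 in stable and -0.88 and -0.86 in transient transfectants. It fell by 0.87 at 24 h (adjusted p = 0.0248). That call was lost with plain background subtraction, with print-tip loess and without either transient array. In stable transfectants Lef1 was called lower (-0.32, adjusted p = 0.0294), a call lost with the second stable array dropped (adjusted p = 0.0712) and without either transient array (adjusted p = 0.0885), and print-tip loess turned it to 0.02.

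**Figure D4:**
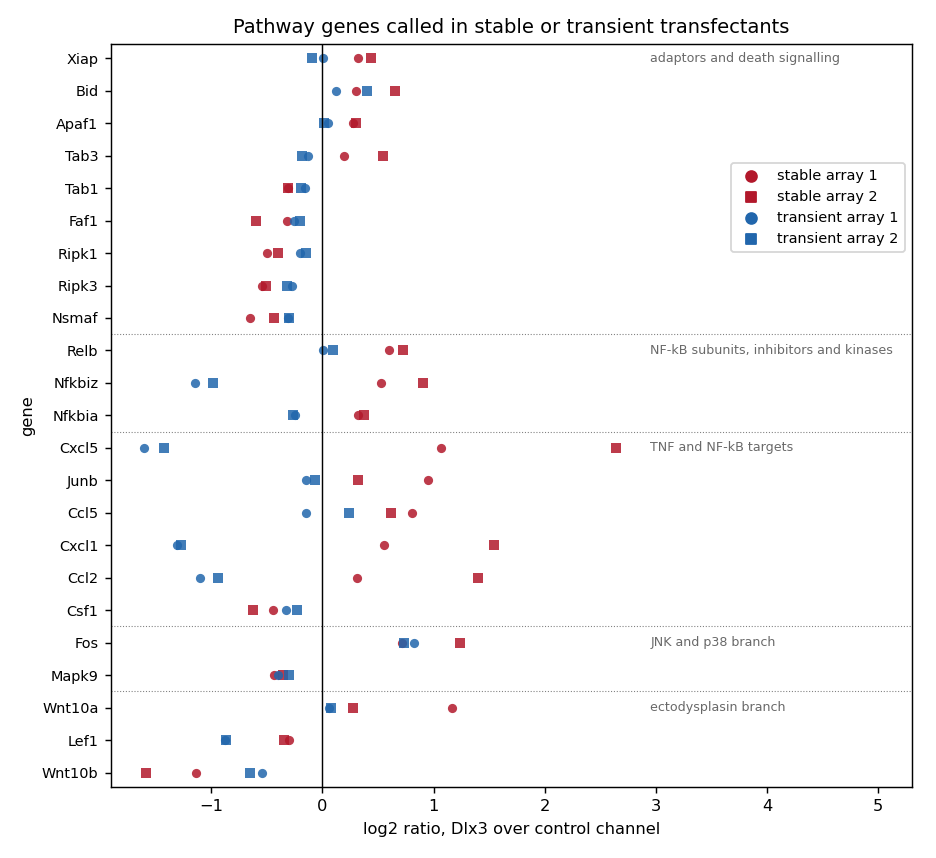
Log2 ratio of Dlx3 over control (horizontal axis) on each array for every pathway probe outside the family that was called in stable or transient transfectants, grouped by list. Cxcl5, Cxcl1, Ccl2 and Nfkbiz are positive on both stable arrays and negative on both transient arrays, and Wnt10b is negative on all 4.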

How the data were processed

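Each file holds the deposited spot intensities of 1 array, read by the authors with GenePix Pro in a Cy5 (Dlx3) and a Cy3 (control) channel, per the file headers, with local background beside them. A deposited column states, in percent, how much of a spot was saturated, and it was 0 for every member. The authors' deposited value table holds a score per spot whose scale, centring and direction are unstated; its column medians were -1.001, -1.007, -1.002 and -1.002, and, read as minus the control to Dlx3 ratio, it correlated with the normalized ratios at r = 0.862 to 0.957 across spots, so it served as an alternative only. Further steps before deposit, such as the probe design, are not given in the sources used here.

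In R 4.3.3, limma 3.58.1 corrected mean foregrounds with normexp (offset 50) and normalized each array with global loess, with controls and bad spots at weight 0. Tested probes had a median foreground over 2 background SDs above median background in either channel on at least 2 arrays. A mean per group was fitted over all 4 arrays with 2 residual degrees of freedom, sharing their spread, followed by eBayes and Benjamini-Hochberg adjustment over all tested probes (14611 in stable transfectants, 14613 in transient ones). A probe was called at an adjusted p under 0.05, and the words rose and fell are kept for such calls. All adjusted p-values are limma's, and quoted intensities are median foregrounds without background subtraction. The procedure was tested on simulated data. With 4 arrays the number of samples limits the precision.

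Of the members, 34 were named through the accession of the probe and 9 through its description. Values are given for Edar, Eda, Tnf, every called member and every member past 1.5-fold on both arrays of a group, at most 3 other members per role as examples, and at most 4 called genes of a pathway list by size of change; the remaining members are named without values and given by count and range. The members and lists were chosen with earlier results of these data known. The lymphocyte list holds a marker whose own values are not reported here. Alternatives were plain background subtraction, median foregrounds, median centring, print-tip loess, scaling between arrays, other filters, the group alone, robust eBayes, the deposited values and each array left out.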

Additional observations from a re-analysis of the deposited data

How the results depend on the processing

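The calls of Edar and Tnfrsf22 in stable transfectants held under all 15 and 14 alternatives that tested them, and over all arrays under all 14 and 13. The other 10 stable calls held under 5 to 11 of 14 or 15. For a stable call, the group alone and the fits without 1 transient array take their spread from the same stable pair. They repeat the same check and are not separate alternatives. The count of 12 stable calls was 7 with plain background subtraction (14.2% of all probes called), 7 with print-tip loess (17.3%), 4 with scaling between arrays (13.5%), 3 of 9 among probes brighter than the randomized oligonucleotides (29.6%), which Edar joins only through its Dlx3 signal, 3 with the group alone (8.4%) and 3 to 15 with 1 array left out. The count of 0 at 24 h was 5 with median centring (4.43% of all probes), 8 with scaling (10.9%), 4 with the group alone (8.81%), 2 with the deposited values (1.57%) and 0 to 4 with 1 array left out. The count of 0 in stable minus transient was 0 to 4 with 1 array left out. The count of 11 over all arrays was 6 with print-tip loess (13.0%), 3 among the brighter probes (32.7%) and 2 to 15 with 1 array left out.

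Signs turned for Eda in stable transfectants (0.0066 with print-tip loess), for Tnf there (-0.0030 to 0.44 with 1 array left out), for Tnfaip2 at 24 h (0.057 with print-tip loess) and for Lef1 in stable transfectants (0.019 with print-tip loess). For Eda in stable minus transient the value was 0.043 with plain subtraction, 0.15 with print-tip loess, 0.082 with scaling and -0.086 to 0.011 with 1 array left out. The cause was not tested. The alternatives for pathway genes were chosen after seeing the data. Where 1 array of a group was left out, the other was assumed to vary like the other group.

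No paired analysis was possible because the labels give no replicate numbers that tie a stable to a transient array. All arrays share 1 dye orientation. Signals at the level of randomized oligonucleotides limit the values of the ligands, the adaptors and Tnfaip6. They also limit all but 7 of the 17 tested receptors, with Tnfrsf22 among those limited. Edar counts among the 7 only through its Dlx3 signal on the stable arrays. Its control signal and its transient values are limited too.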
